A study of Mus musculus with 24 samples.

Results

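The dual-specificity MAP kinase phosphatases are enzymes that switch off the MAP kinases ERK, JNK and p38, and 8 of their genes were followed here in mouse splenic B cells: Dusp1, Dusp2, Dusp4, Dusp5, Dusp6, Dusp7, Dusp10 and Dusp16. A probe set counted for a gene if it carried that symbol and no other in the probe annotation of the array, which gave 12 probe sets. The brightest of them over the 24 arrays stood for each gene. All 8 genes passed the filter on low signals and were among the 14335 genes tested. The arrays were Affymetrix mouse genome expression arrays, and every value below is a log2 MAS5 signal, a probe set summary scaled to the same mean on each array. Signals of different probe sets are not comparable as amounts of RNA, so levels are compared only within a gene.

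The study asked what loss of the transcription factor NFATc1 changes when B cells are triggered through their antigen receptor. In the deficient group (KO), exon 3 of Nfatc1, which encodes the calcineurin-binding regulatory region, was flanked by loxP sites and removed by a Cre driven from Cd79a (mb-1), a gene active from early in the B lineage. The control cells (WT) came from control mice, whose Nfatc1 and Cre alleles are not given in the sources used here. Both came from C57BL/6 mice of 6 to 8 weeks. B cells were enriched from spleen with beads, and cells were left unstimulated (0 h) or treated with anti-IgM, an antibody that cross-links the B cell receptor, for 3, 8 or 16 h. Each of the 8 genotype-by-time groups held 3 arrays, described as biological replicates.

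MAP kinases are activated by phosphorylation of a threonine and a tyrosine in the activation loop, and these phosphatases remove both phosphates. The family falls into nuclear enzymes made on demand by stimulated cells (Dusp1, Dusp2, Dusp4, Dusp5), cytoplasmic enzymes selective for ERK (Dusp6, Dusp7) and enzymes that prefer JNK and p38 (Dusp10, Dusp16). Many of the genes are themselves targets of the kinases, so the enzymes form a negative feedback. In B cells, cross-linking of the antigen receptor activates ERK through RasGRP and Ras, and JNK and p38 through Rac and other signalling proteins.

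The start-site regions of the genes differed in the elements they carried. Sequences came from the RefSeq promoter table of build GRCm38.p6, which held 7 of the 8 genes, all but Dusp4. A window of 250 bases before to 50 bases after the start site was searched on both strands for 5 motifs. Dusp1 was the gene that fell most, Dusp2 fell between 3 and 8 h, and Dusp5 was the gene with CArG boxes. Dusp6, like Dusp7, is ERK-selective, fell at all times and held neither of the marked elements. The regions of Dusp1, Dusp2, Dusp5 and Dusp6 are printed here. Each runs 5′ to 3′ on the strand of the gene and ends 30 bases after the start site, and capitals mark TGACG half-sites on either strand and CArG boxes.
Dusp1, chr17:26508443-26508722, minus strand of GRCm38.p6:
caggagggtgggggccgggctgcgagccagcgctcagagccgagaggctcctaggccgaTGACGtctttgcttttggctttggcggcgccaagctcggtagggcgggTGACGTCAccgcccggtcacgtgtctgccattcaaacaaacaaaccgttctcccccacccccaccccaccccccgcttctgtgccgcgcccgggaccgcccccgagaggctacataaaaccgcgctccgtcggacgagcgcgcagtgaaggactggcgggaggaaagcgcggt
Dusp2, chr2:127335909-127336188, plus strand of GRCm38.p6:
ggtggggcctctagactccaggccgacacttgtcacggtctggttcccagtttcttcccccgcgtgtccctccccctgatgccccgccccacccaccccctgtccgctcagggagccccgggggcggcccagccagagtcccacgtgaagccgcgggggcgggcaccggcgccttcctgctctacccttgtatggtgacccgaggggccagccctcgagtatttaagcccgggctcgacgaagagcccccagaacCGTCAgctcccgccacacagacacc
Dusp5, chr19:53528895-53529174, plus strand of GRCm38.p6:
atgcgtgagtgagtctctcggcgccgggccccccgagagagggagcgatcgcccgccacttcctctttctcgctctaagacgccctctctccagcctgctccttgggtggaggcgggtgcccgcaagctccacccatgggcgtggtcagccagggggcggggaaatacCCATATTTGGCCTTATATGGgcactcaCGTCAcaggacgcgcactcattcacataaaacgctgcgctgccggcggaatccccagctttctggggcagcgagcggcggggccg
Dusp6, chr10:99262981-99263260, plus strand of GRCm38.p6:
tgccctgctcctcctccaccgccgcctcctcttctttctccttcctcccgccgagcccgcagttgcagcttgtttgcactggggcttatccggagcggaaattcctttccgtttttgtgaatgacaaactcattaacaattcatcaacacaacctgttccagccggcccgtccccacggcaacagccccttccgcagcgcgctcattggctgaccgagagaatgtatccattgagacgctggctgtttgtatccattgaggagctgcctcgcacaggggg

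The cyclic AMP response element half-site TGACG, a binding element of CREB and ATF factors, was present in 4 of the 7 windows, those of Dusp1, Dusp2, Dusp5 and Dusp16, against 20.8% of all 32851 promoter windows. Dusp1 held 3 matches, of which the pair at -143 and -140 overlapped head to head to form a full element. Dusp2 held 1 match just after the start site, and Dusp6 held none. The CArG box, the site of serum response factor, was found in Dusp5 alone, with adjacent matches at -82 and -72, against 1.63% of all windows. The core element GGAAA bound by NFAT proteins was present in 4 of the 7 windows, those of Dusp1, Dusp5, Dusp6 and Dusp16, against 61.3% of all windows. The AP-1 site TGANTCA and the kappaB site were not found in any of the 7 windows, against 7.81% and 4.51% of all windows. A match describes letters in these windows and shows no binding.

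The arrays were alike in scaling. Of a list of 10 B cell markers, 9 were on the array. All 9 were above the 40th percentile of their own array on all 24 arrays. So were 4 of the 8 macrophage and monocyte markers, so this does not show that the cells were B cells alone. The 40th percentile, used here as the filter level, lay between 5.37 and 6.42. It was highest on the KO 8 h replicate 2 array (6.23) and the KO 16 h replicate 2 array (6.42). The 4 WT replicate 2 arrays, 1 at each time, carried male-type expression of Xist and Y-linked genes, whereas the other 20 arrays carried the female type. Nfatc1 was read by 5 probe sets, and the brightest averaged 0.56 higher in KO than in WT (adjusted p = 2.74e-05 by limma). The dimmer ones, in order of brightness, averaged 0.24, 0.11, 0.19 and 0.15 higher in KO. None of these had an adjusted p under 0.05 (0.114, 0.896, 0.52 and 0.959 by limma). The positions of those probes relative to exon 3 are not given here, so they do not check the deletion.

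Between 0 h and the later times of anti-IgM, the changes of the 8 genes ran mainly downwards in both genotypes. No group was kept without anti-IgM for 3, 8 or 16 h, so effects of anti-IgM and of time in culture cannot be told apart. A gene counts as changed where the limma test gave an adjusted p under 0.05 over all 14335 genes. In KO cells, 4, 6 and 6 of the 8 genes fell at 3, 8 and 16 h against 0 h, while 21.7%, 14.4% and 16.4% of all genes fell. In WT cells, 5, 6 and 5 of the 8 fell, against 21.3%, 15.7% and 18.4% of all genes. At each time 1 of the 8 rose, against 16.6%, 17.2% and 19.4% of all genes in KO and 17%, 17.7% and 20.9% in WT. Dusp1, Dusp6 and Dusp7 fell at all 3 times in both genotypes, a pattern met by 8.32% of all genes. Dusp4 alone among the 8 rose at all 3 times in both genotypes, a pattern met by 9.46%. The median change of the 8 genes at 3 h was -0.61 in KO and -0.73 in WT, where the median of all genes was -0.11 and -0.14. These are bulk RNA values, so fewer cells of a type and less RNA per cell cannot be told apart.

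**Figure D1:**
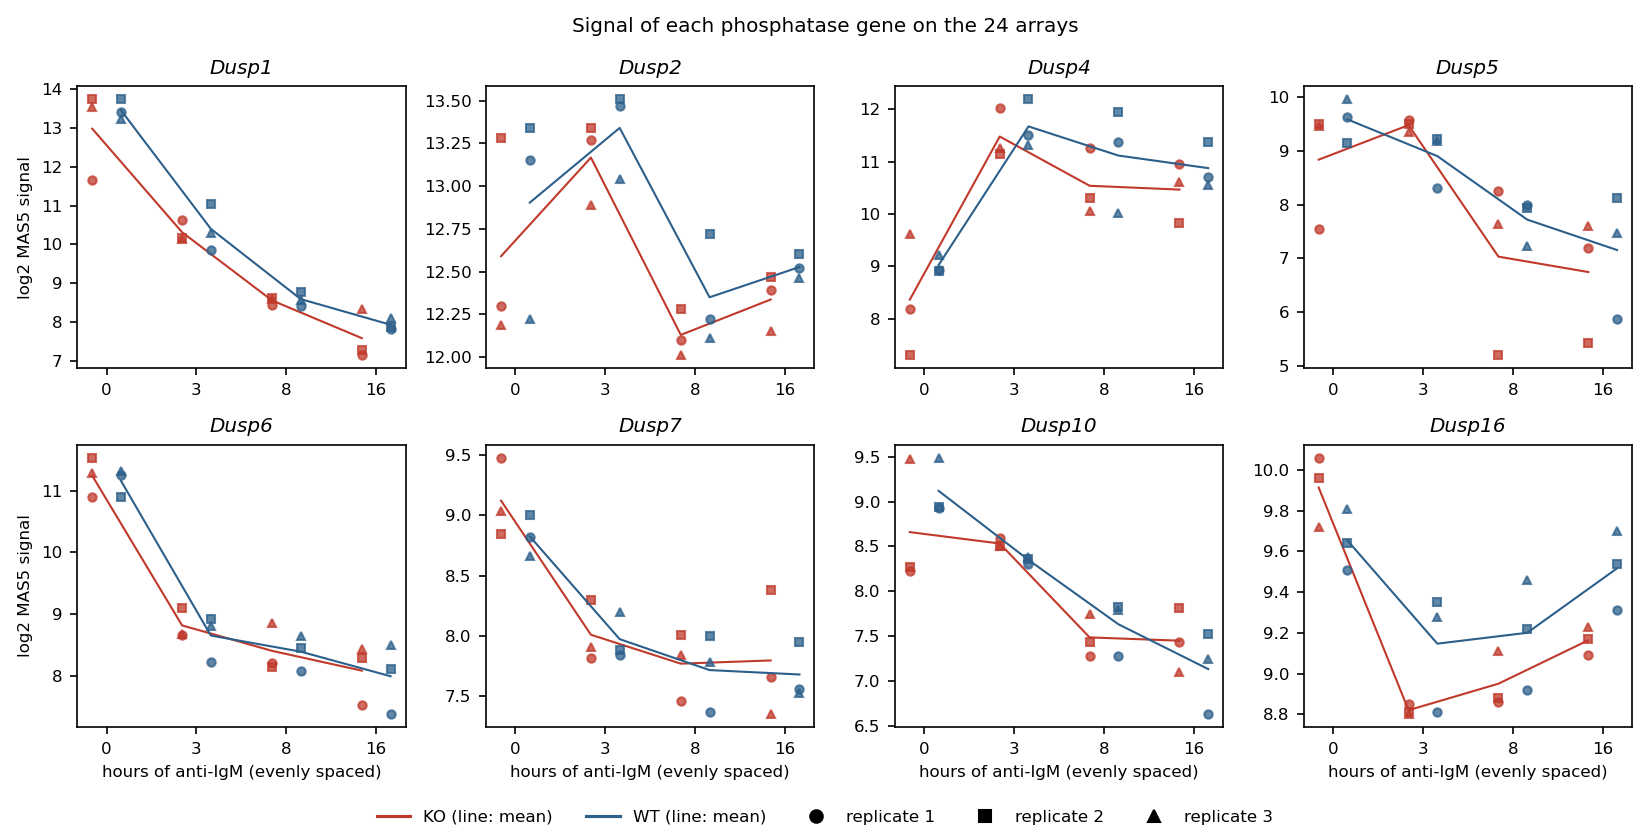
Log2 MAS5 signal (y axis, its range set for each gene) of the 8 phosphatase genes at 0, 3, 8 and 16 h of anti-IgM (x axis, evenly spaced), with KO arrays in red left of WT arrays in blue. Symbols are replicates and lines join the group means of 3 arrays. Dusp1 is lower at each later time, Dusp6 and Dusp7 are low from 3 h on, Dusp4 is above its 0 h level at every later time, and Dusp2 has its highest means at 3 h.

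**Figure D2:**
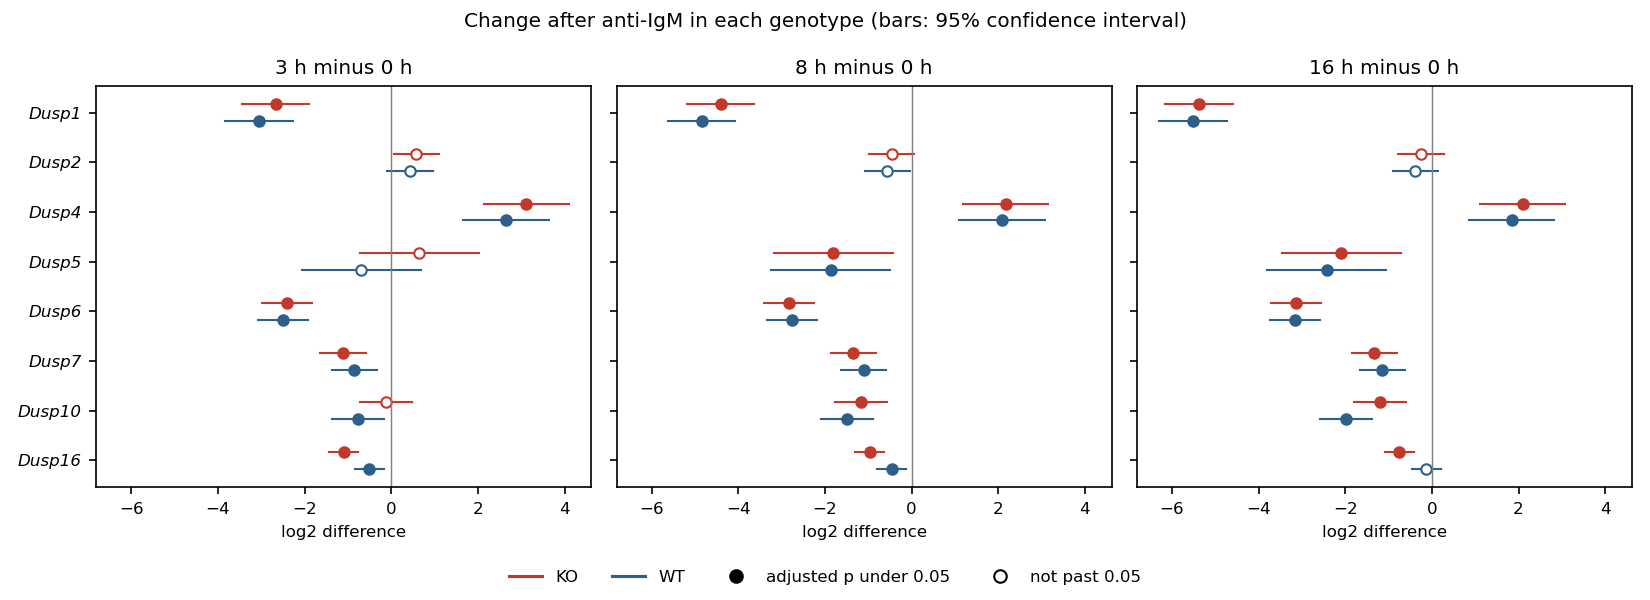
Log2 difference from 0 h (x axis) for each gene (rows) at 3, 8 and 16 h in KO (red, upper) and WT (blue, lower), with 95% confidence intervals of the limma fit. Filled points passed an adjusted p of 0.05. The largest falls are those of Dusp1, to -5.38 in KO and -5.51 in WT at 16 h.

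Dusp1, the immediate early nuclear phosphatase that acts on p38 and JNK as well as ERK, had the largest change of the 8 genes. In KO cells its signals were 11.66, 13.74 and 13.52 at 0 h, 10.63, 10.16 and 10.15 at 3 h, 8.45, 8.63 and 8.61 at 8 h, and 7.15, 7.29 and 8.34 at 16 h. In WT cells they were 13.39, 13.73 and 13.22 at 0 h, 9.87, 11.03 and 10.3 at 3 h, 8.42, 8.79 and 8.58 at 8 h, and 7.83, 7.88 and 8.1 at 16 h. Neither genotype had a 3 h array as high as any of its 0 h arrays, and the 8 h arrays lay below all 3 h arrays. The difference from 0 h at 3, 8 and 16 h was -2.66, -4.41 and -5.38 in KO, which is 6.33-, 21.3- and 41.7-fold lower (SE 0.375, adjusted p = 3.44e-06, 2.76e-09 and 1e-10). In WT it was -3.05, -4.85 and -5.51, which is 8.29-, 28.9- and 45.7-fold lower (SE 0.375, adjusted p = 4.81e-07, 5.01e-10 and 3.73e-11). Among all 14335 genes ordered from the strongest fall at 3 h, Dusp1 stood at place 217 in KO and 126 in WT. From 3 h to 8 h Dusp1 fell by a further 1.75 in KO (adjusted p = 0.00182) and 1.8 in WT (adjusted p = 0.00186). The step from 8 h to 16 h was -0.97 in KO (adjusted p = 0.164) and -0.66 in WT (adjusted p = 0.355), neither past the threshold. Without the KO 0 h replicate 1 array the KO step passed it (adjusted p = 0.0332). None of the 8 genes passed at this last step, against 4.65% of all genes in KO and 7.74% in WT. That KO 0 h array was also the lowest of its group for Fos, an immediate early gene, at 13.52 against 14.78 and 14.52 on the other KO 0 h arrays.

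Dusp2, a nuclear phosphatase of blood cells also known as PAC1, was bright on all arrays and had its highest means at 3 h. Its KO signals were 12.3, 13.28 and 12.19 at 0 h, 13.27, 13.34 and 12.89 at 3 h, 12.1, 12.28 and 12.01 at 8 h, and 12.39, 12.47 and 12.15 at 16 h. Its WT signals were 13.15, 13.34 and 12.22 at 0 h, 13.47, 13.51 and 13.04 at 3 h, 12.22, 12.72 and 12.11 at 8 h, and 12.52, 12.6 and 12.46 at 16 h. At 0 h the arrays were widely spread, and the replicate 3 array was the lowest in all 8 groups. In the main fit, which took no account of replicate number, no difference from 0 h passed the threshold. At 3 h it was 0.58 in KO (adjusted p = 0.0765) and 0.43 in WT (adjusted p = 0.197). At 8 h it was -0.46 in KO (adjusted p = 0.19) and -0.56 in WT (adjusted p = 0.0992). A fit with the replicate number as a fixed block, given in the closing section, called the differences at 3 and 8 h. Between 3 h and 8 h Dusp2 fell in both genotypes, 2.05-fold in KO (-1.04, adjusted p = 0.00503) and 1.99-fold in WT (-0.99, adjusted p = 0.00896); of all genes, 6% fell at this step in KO and 5.57% in WT. All 3 KO arrays at 3 h lay above all 3 KO arrays at 8 h, and the same held in WT. Without the WT 8 h replicate 3 array the WT fall was -0.87 (adjusted p = 0.0521). The calls against 0 h changed with the processing and with single arrays left out. With arrays scaled to their medians, the rise at 3 h passed in KO (0.73, adjusted p = 0.0305) and WT (0.67, adjusted p = 0.0459). Under quantile normalization the WT value at 8 h passed (-0.66, adjusted p = 0.0461). Without the KO 0 h replicate 2 array the KO rise at 3 h was 0.93 (adjusted p = 0.00339), and without the WT 0 h replicate 3 array the WT value at 8 h was -0.9 (adjusted p = 0.00529) and at 16 h -0.72 (adjusted p = 0.0202). The WT value at 8 h also passed without the WT 8 h replicate 2 array (-0.74, adjusted p = 0.0454).

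Dusp4, a nuclear phosphatase of ERK and JNK, rose at all 3 times in both genotypes. In KO cells its signals were 8.18, 7.3 and 9.62 at 0 h, 12.03, 11.15 and 11.26 at 3 h, 11.26, 10.31 and 10.05 at 8 h, and 10.96, 9.82 and 10.62 at 16 h. In WT cells they were 8.94, 8.92 and 9.22 at 0 h, 11.5, 12.2 and 11.32 at 3 h, 11.38, 11.95 and 10.02 at 8 h, and 10.71, 11.37 and 10.55 at 16 h. Every stimulated array lay above every 0 h array, within each genotype and across them. The difference from 0 h was 3.11, 2.17 and 2.1 in KO (8.65-, 4.5- and 4.29-fold; SE 0.476; adjusted p = 1.03e-05, 0.000876 and 0.00101). It was 2.64, 2.09 and 1.85 in WT (6.25-, 4.25- and 3.6-fold; adjusted p = 7.87e-05, 0.00116 and 0.00282). At 3 h Dusp4 stood at place 59 from the strongest rise in KO and at place 113 in WT. The step from 3 h to 8 h was -0.94 in KO and -0.56 in WT on the log2 scale, and neither passed the threshold (adjusted p = 0.19 and 0.527). Its 0 h arrays had an SD of 1.17 in KO and 0.169 in WT.

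Dusp5, a nuclear phosphatase specific to ERK, was lower at 8 and 16 h in both genotypes and did not pass the threshold at 3 h. Its KO signals were 7.55, 9.5 and 9.46 at 0 h, 9.58, 9.5 and 9.36 at 3 h, 8.26, 5.19 and 7.64 at 8 h, and 7.2, 5.42 and 7.61 at 16 h. Its WT signals were 9.64, 9.15 and 9.97 at 0 h, 8.3, 9.22 and 9.19 at 3 h, 7.99, 7.94 and 7.23 at 8 h, and 5.86, 8.13 and 7.47 at 16 h. The WT arrays of 8 and 16 h all lay below those of 0 h, whereas in KO the 0 h array at 7.55 overlapped them. At 3 h the difference from 0 h was 0.64 in KO (adjusted p = 0.51) and -0.69 in WT (adjusted p = 0.471), and neither passed. At 8 and 16 h it was -1.81 and -2.1 in KO (adjusted p = 0.0401 and 0.0152) and -1.87 and -2.43 in WT (adjusted p = 0.0323 and 0.00459), with an SE of 0.664. In KO 8 h and KO 16 h 1 array each, replicate 2, was under its filter level, and so was replicate 1 in WT 16 h. Without the KO 8 h replicate 2 array the KO value at 8 h was -0.89 (adjusted p = 0.321), and without the KO 16 h replicate 2 array the KO value at 16 h was -1.43 (adjusted p = 0.122). Without the KO 0 h replicate 2 array they were -1.48 and -1.76 (adjusted p = 0.158 and 0.0756), and without the KO 0 h replicate 3 array -1.5 and -1.78 (adjusted p = 0.148 and 0.0719). The WT call at 8 h ended without any 1 of 4 arrays, namely replicates 1 and 3 of WT 0 h (-1.85 and -1.68, adjusted p = 0.0754 and 0.103) and replicates 2 and 3 of WT 8 h (-1.98 and -1.62, adjusted p = 0.0535 and 0.111). The WT call at 16 h held without any single array and without the 4 male-type arrays (-3.14, adjusted p = 0.00637). Both 8 h calls also ended under quantile normalization (limma adjusted p = 0.0814 in KO and 0.106 in WT). The same held with arrays scaled to their medians (0.0819 and 0.0865) and with empirical Bayes without the trend (0.0765 and 0.0646). In KO the step from 3 h to 8 h was also called (-2.45, adjusted p = 0.0106), and without the KO 8 h replicate 2 array it was -1.53 (adjusted p = 0.0964).

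Dusp6, the cytoplasmic phosphatase that acts on ERK and serves as a feedback target of it, fell sharply by 3 h. In KO cells its signals were 10.9, 11.53 and 11.29 at 0 h, 8.67, 9.11 and 8.69 at 3 h, 8.22, 8.16 and 8.86 at 8 h, and 7.54, 8.29 and 8.45 at 16 h. In WT cells they were 11.25, 10.9 and 11.32 at 0 h, 8.24, 8.92 and 8.82 at 3 h, 8.09, 8.46 and 8.65 at 8 h, and 7.39, 8.12 and 8.5 at 16 h. The lowest 0 h array, at 10.9, stood well above the highest stimulated array, at 9.11. The difference from 0 h was -2.41, -2.82 and -3.14 in KO (5.33-, 7.08- and 8.84-fold lower; SE 0.277; adjusted p = 1.83e-07, 2.69e-08 and 3.62e-09). It was -2.5, -2.76 and -3.15 in WT (5.65-, 6.76- and 8.91-fold lower; adjusted p = 1.02e-07, 2.95e-08 and 2.18e-09). Neither later step between neighbouring times passed the threshold in KO or WT. At 3 h Dusp6 stood at place 309 from the strongest fall in KO and 285 in WT.

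Dusp7, the other ERK-selective cytoplasmic phosphatase among them, also fell at all 3 times. Its KO signals were 9.48, 8.85 and 9.04 at 0 h, 7.82, 8.3 and 7.91 at 3 h, 7.46, 8.01 and 7.84 at 8 h, and 7.66, 8.38 and 7.35 at 16 h. Its WT signals were 8.82, 9 and 8.66 at 0 h, 7.84, 7.88 and 8.2 at 3 h, 7.37, 8 and 7.78 at 8 h, and 7.56, 7.95 and 7.53 at 16 h. Within each genotype every 0 h array was above every stimulated array. The difference from 0 h was -1.11, -1.35 and -1.33 in KO (2.17-, 2.55- and 2.51-fold lower; adjusted p = 0.000939, 0.000164 and 0.000162) and -0.86, -1.11 and -1.15 in WT (1.81-, 2.16- and 2.21-fold lower; adjusted p = 0.00859, 0.00113 and 0.000655). The SE was 0.252 throughout. Without the 4 male-type WT arrays, which leaves 2 WT arrays a time, the WT value at 3 h was -0.72 (adjusted p = 0.0969). Of the 2 dimmer Dusp7 probe sets, the second in brightness fell by 1.06, 1.39 and 1.21 in KO and by 1.24, 1.05 and 0.94 in WT, past the threshold at each time. The dimmest gave -0.41, -0.53 and -0.63 in KO and -0.47, -1.08 and -0.27 in WT and passed only in WT at 8 h (adjusted p = 0.0155).

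Dusp10, a phosphatase of p38 and JNK, was lower at 8 and 16 h in both genotypes on its brighter probe set. Its KO signals were 8.23, 8.27 and 9.48 at 0 h, 8.59, 8.51 and 8.5 at 3 h, 7.28, 7.43 and 7.75 at 8 h, and 7.44, 7.81 and 7.1 at 16 h. Its WT signals were 8.93, 8.94 and 9.49 at 0 h, 8.31, 8.36 and 8.38 at 3 h, 7.28, 7.83 and 7.79 at 8 h, and 6.63, 7.52 and 7.25 at 16 h. All arrays of 8 and 16 h lay below all arrays of 0 and 3 h. The difference from 0 h was -1.17 at 8 h and -1.21 at 16 h in KO (adjusted p = 0.00278 and 0.0018) and -1.49 and -1.99 in WT (adjusted p = 0.00024 and 4.82e-06), with an SE of 0.291. At 3 h it was -0.13 in KO (adjusted p = 0.795) and -0.77 in WT (adjusted p = 0.0397), and the difference between these changes, 0.64, was not past the threshold (adjusted p = 1). The WT call at 3 h ended without replicate 1, 2 or 3 of WT 3 h (-0.75, -0.77 and -0.78, adjusted p = 0.0896, 0.0785 and 0.0734) and without replicate 3 of WT 0 h (-0.58, adjusted p = 0.18). Between 3 h and 8 h the KO fall was 1.05 (adjusted p = 0.0127; without the KO 8 h replicate 1 array -0.94, adjusted p = 0.0579) and the WT value was -0.72 (adjusted p = 0.103). The WT step passed without the KO 0 h replicate 3 array (adjusted p = 0.0461). The second Dusp10 probe set was dim, with all 6 arrays of 16 h under their filter level. Against 0 h it passed only at 16 h (adjusted p = 0.000785 in KO and 0.00342 in WT). With signals under the filter level raised to it, that difference was -0.53 in KO and -0.66 in WT. At 3 h it gave 0.59 in WT (adjusted p = 0.631). At 8 h it gave -0.52 in KO (adjusted p = 0.704) and -0.01 in WT (adjusted p = 0.997). The 2 probe sets therefore disagree at 8 h, where only the brighter passed the threshold. On the dim one, 2 KO 8 h arrays and no WT 8 h array were under their filter level.

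Dusp16, a phosphatase with preference for JNK and p38, fell at 3 and 8 h in both genotypes and at 16 h in KO. Its KO signals were 10.06, 9.96 and 9.72 at 0 h, 8.85, 8.81 and 8.8 at 3 h, 8.86, 8.88 and 9.11 at 8 h, and 9.09, 9.17 and 9.23 at 16 h. Its WT signals were 9.51, 9.64 and 9.81 at 0 h, 8.81, 9.35 and 9.28 at 3 h, 8.92, 9.22 and 9.46 at 8 h, and 9.31, 9.54 and 9.7 at 16 h. The KO stimulated arrays all lay below the KO 0 h arrays, whereas the WT 16 h arrays overlapped those of WT 0 h. The difference from 0 h was -1.09, -0.96 and -0.75 in KO (2.13-, 1.95- and 1.68-fold lower; adjusted p = 6.61e-06, 4.77e-05 and 0.000647). It was -0.51, -0.45 and -0.14 in WT (adjusted p = 0.0147, 0.0338 and 0.568), with an SE of 0.162. The WT call at 3 h ended without replicate 1 of WT 3 h (-0.34, adjusted p = 0.125) or replicate 3 of WT 0 h (-0.43, adjusted p = 0.0724). The WT call at 8 h ended without replicate 1 or 2 of WT 8 h (-0.31 and -0.46, adjusted p = 0.198 and 0.0668) or replicate 2 or 3 of WT 0 h (-0.46 and -0.37, adjusted p = 0.0697 and 0.135). The second Dusp16 probe set fell at all 3 times in both genotypes, by 1.01, 1.32 and 1.17 in KO and by 0.82, 0.87 and 0.93 in WT. The 2 probe sets therefore disagree in WT at 16 h, where the second passed the threshold (adjusted p = 0.00211) and the brighter did not.

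Across the groups the order of levels followed time for Dusp1, with 0 h highest, then 3 h, 8 h and 16 h. At each of these steps in the order, KO and WT of the same time overlapped, and the lower group of one time was apart from the higher group of the next. For Dusp6 and Dusp7 the only gap was between the 0 h groups and all the others. For Dusp4 the only gap lay between the 6 stimulated groups, of which KO 16 h was lowest at 10.47, and the 0 h groups at 8.37 in KO and 9.03 in WT. For Dusp2 no neighbouring groups in the order were apart. Dusp10 had gaps on either side of WT 3 h (8.35), with KO 3 h above it at 8.53 and WT 8 h below it at 7.63. For Dusp5 the gap was between KO 3 h at 9.48 and WT 3 h at 8.9, and for Dusp16 between KO 8 h at 8.95 and KO 3 h at 8.82.

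**Figure D3:**
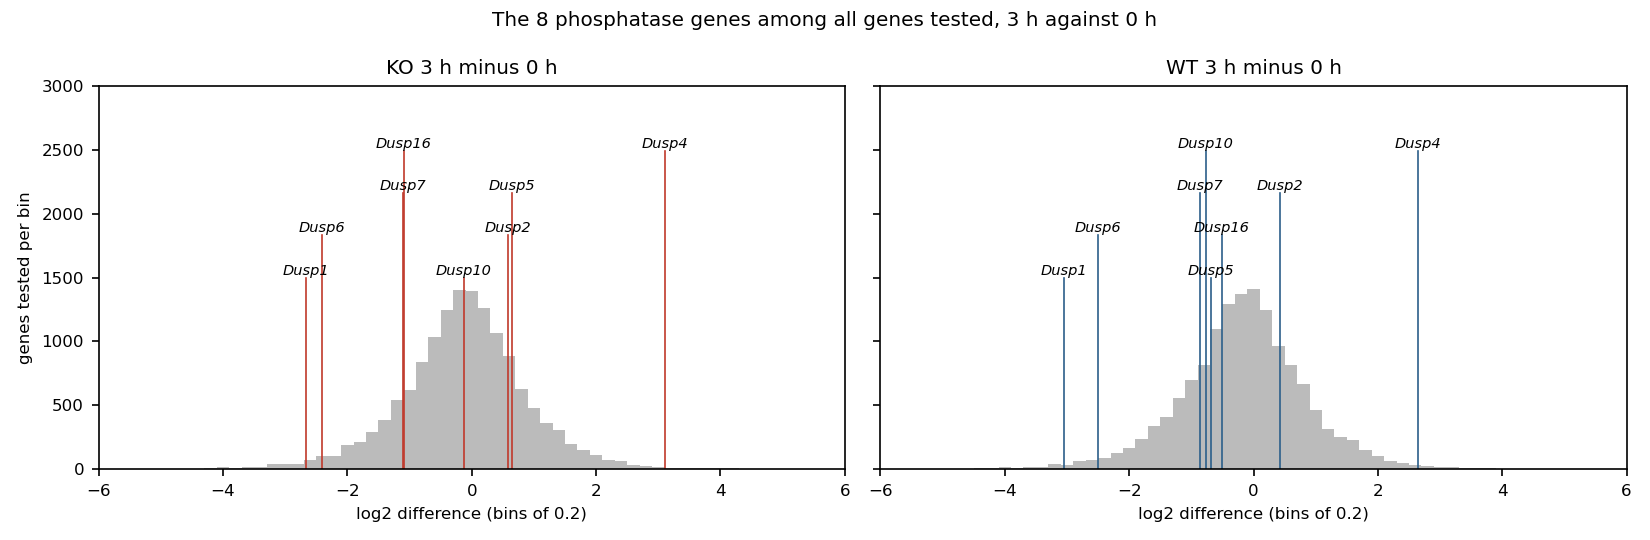
Distribution of the log2 difference 3 h minus 0 h (x axis, bins of 0.2) over the 14335 genes tested (grey bars, genes per bin on the y axis) in KO (left) and WT (right), with the 8 phosphatase genes as coloured lines whose height carries no value. Dusp1 and Dusp6 lie in the lower tail and Dusp4 in the upper tail in both genotypes.

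None of the 8 genes differed between KO and WT past the threshold. Averaged over the 4 times, the difference KO minus WT was between -0.46 (Dusp4) and 0.13 (Dusp7). By limma, 0 of the 8 passed an adjusted or an unadjusted p of 0.05, while 1.21% and 9.64% of all genes did. Within 0, 3, 8 and 16 h, again 0 of the 8 passed, against 0.0349%, 0.0558%, 0.0977% and 0.614% of all genes. At an unadjusted p of 0.05 the count was 0, 0, 0 and 1 of the 8, against 3.49%, 3.7%, 5.42% and 7.07% of all genes. In the test of genotype by time 0 of the 8 passed after adjustment and 1 before it, against 0.014% and 2.8% of all genes. The count of 0 did not change under any of the alternative settings tried. A p that misses the threshold does not show equal levels, and the intervals say how large a difference remains possible.

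The averaged difference was tightest for Dusp16, at -0.17 with a 95% interval of -0.33 to 0 (unadjusted p = 0.0509 and adjusted p = 0.522 by limma). It was 0.09 for Dusp6 (-0.2 to 0.37), 0.13 for Dusp7 (-0.13 to 0.39) and -0.03 for Dusp10 (-0.33 to 0.28). These 4 intervals stay within 0.39 log2 units either way. Among the inducible nuclear phosphatases the averaged difference was -0.23 for Dusp1 (-0.62 to 0.15), -0.22 for Dusp2 (-0.49 to 0.04), -0.46 for Dusp4 (-0.95 to 0.03) and -0.32 for Dusp5 (-1.01 to 0.37). All 4 values were below 0, and no interval excluded 0.

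**Figure D4:**
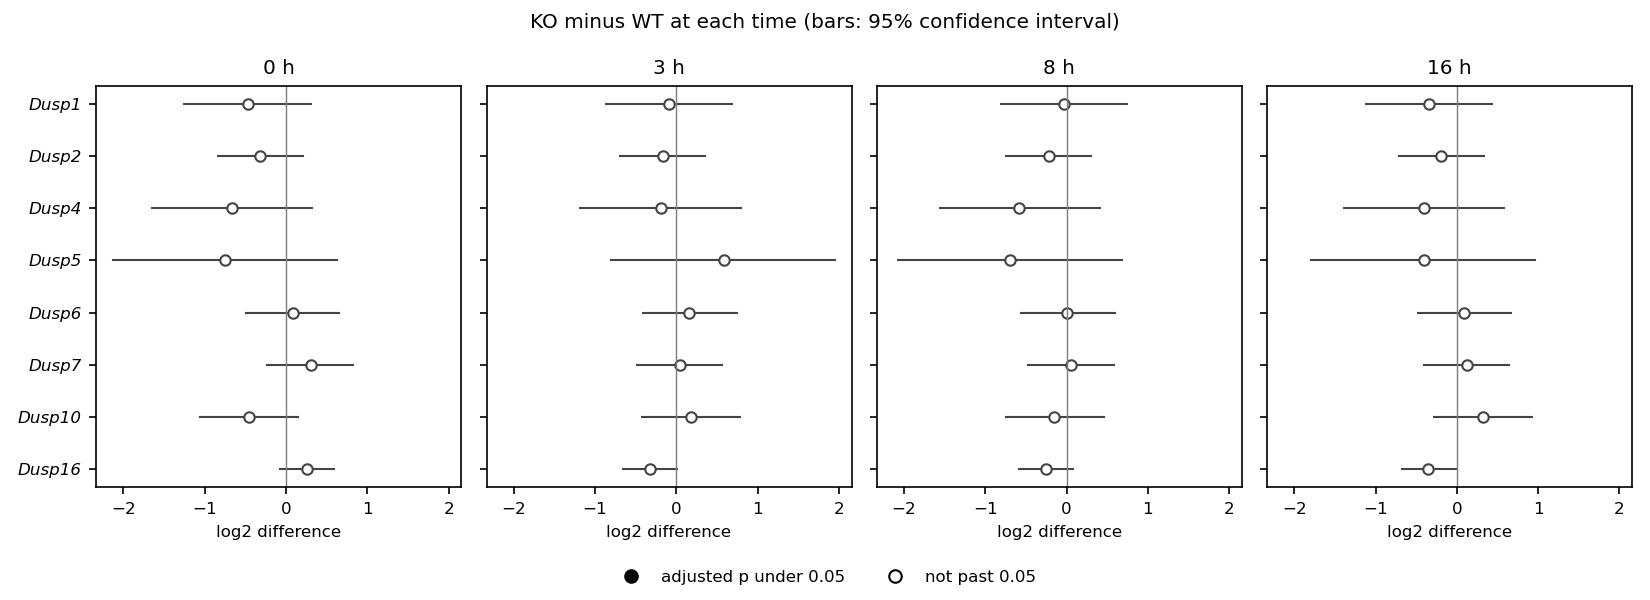
Log2 difference KO minus WT (x axis) for each gene (rows) at 0, 3, 8 and 16 h, with 95% confidence intervals of the limma fit. All points are open, since none passed an adjusted p of 0.05. The intervals are widest for Dusp5 and narrowest for Dusp16.

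At single times, the 3 KO arrays and 3 WT arrays were fully apart for 2 of the 8 genes at 3 h and 1 at 16 h, and for none at 0 and 8 h, whereas 7.92%, 10.2%, 7.81% and 9.48% of all genes were apart at these times in that order. At 3 h, Dusp5 was at 9.58, 9.5 and 9.36 in KO, all above 8.3, 9.22 and 9.19 in WT, and the difference of 0.58 had an interval of -0.8 to 1.95. Also at 3 h, Dusp10 was at 8.59, 8.51 and 8.5 in KO, all above 8.31, 8.36 and 8.38 in WT, a difference of 0.18 (-0.42 to 0.78). At 16 h, Dusp16 was at 9.09, 9.17 and 9.23 in KO, all below 9.31, 9.54 and 9.7 in WT. That difference was -0.35 (-0.68 to -0.01; limma unadjusted p = 0.0414, adjusted p = 0.663).

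Dusp16 had the smallest unadjusted p of the 8 genes in the genotype by time test (0.044, adjusted p = 1 by limma). Its change from 0 h differed between KO and WT by -0.59, -0.51 and -0.61 at 3, 8 and 16 h (limma unadjusted p = 0.0174, 0.0356 and 0.0139), none past the threshold after adjustment (adjusted p = 1, 0.999 and 0.979). Of all genes, 2.3%, 3.11% and 4.37% passed the unadjusted threshold in these tests, and 0%, 0% and 0.0209% the adjusted one. These 3 values share the same 0 h arrays. On the second Dusp16 probe set, KO minus WT was 0, -0.19, -0.45 and -0.23 at 0, 3, 8 and 16 h. The KO mean was higher than the WT mean at 0 h, 9.91 ± 0.177 against 9.65 ± 0.153, and lower at 16 h, 9.16 ± 0.0695 against 9.51 ± 0.196 (SD, n = 3 each). For Dusp6 the same differences between genotypes were 0.08, -0.07 and 0.01, and for Dusp4 0.47, 0.08 and 0.25.

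The replicate numbers form 6 sets of 4 arrays, 1 set per genotype and number. When the 4 arrays of a set were averaged and the 3 KO sets were compared with the 3 WT sets, Dusp16 was at 9.22, 9.2 and 9.21 in KO and 9.14, 9.43 and 9.56 in WT. Dusp4 was at 10.6, 9.65 and 10.39 in KO and 10.63, 11.11 and 10.28 in WT. The sets overlapped for all 8 genes, with exact two-sided permutation p-values from 0.4 to 0.9, where 0.1 is the smallest that 3 against 3 can give.

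Over the 24 arrays, Dusp1 and Dusp6 had a Pearson r of 0.93, Dusp6 and Dusp7 of 0.87, and Dusp1 and Dusp10 of 0.85. Dusp4 ran against them, with an r of -0.76 with Dusp6, -0.74 with Dusp7 and -0.73 with Dusp16. Dusp2 was loosely tied to the others, from -0.09 with Dusp16 to 0.51 with Dusp5. These are descriptions over arrays that share 4 times of stimulation.

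The genes nearest in pattern were sought among 9132 genes whose 8 group means spanned at least 1 log2 unit. Dusp1 was most like Zfp36, which encodes an RNA-binding protein that destabilises cytokine transcripts (r = 0.979), Il4ra, a receptor chain for interleukin-4 (0.971), and Ier5, an immediate early gene (0.969). Dusp6 was most like Pip4k2a, a phosphoinositide kinase (0.976), Rasa3, a GTPase-activating protein for Ras and Rap (0.973), and the linker histone gene H1f2 (0.969). Dusp4 was most like the orphan nuclear receptor gene Nr4a3 (0.933), whose group means were 6.67, 12.38, 10.48 and 10.67 in KO and 6.6, 12.66, 11.13 and 11.51 in WT at 0, 3, 8 and 16 h. Trmt10c (0.916) and Noc3l (0.915) came next. Dusp7 was nearest to Naip5 (0.945), Ttc7 (0.912) and Pld4 (0.911), and Dusp16 to Slamf6 (0.908), Irf2bpl (0.869) and Syne2 (0.86). Dusp10 was nearest to Ulk2 (0.896), Cd2 (0.887) and Pde2a (0.887). The best matches of Dusp2 were Piezo1 (0.843), Map1lc3a (0.83) and Sertad2 (0.822), and those of Dusp5 were Dnajb9 (0.837), Glul (0.825) and Tspoap1 (0.825).

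Other genes of the dual-specificity phosphatase family were counted as a list. Of 18 tested among 19 listed, 3 rose and 4 fell at 3 h in KO and 5 rose and 3 fell in WT, with a median difference of 0.07 in KO and -0.32 in WT. These are 16.7% and 22.2% of the list in KO and 27.8% and 16.7% in WT, near the 16.6% and 21.7% of all genes in KO and beside 17% and 21.3% in WT. The largest falls were in the slingshot phosphatases of cofilin, Ssh2 in KO (-2.59, adjusted p = 6.72e-12) and Ssh1 in WT (-2.65, adjusted p = 1.41e-10). Of the genes called, Dusp3 had the largest rise in KO (1.31, adjusted p = 1.61e-05). Dusp14 had the largest in WT (adjusted p = 0.000177), with a mean of 6.8 at 3 h and all 3 WT 0 h arrays under their filter level. With low signals raised to that level, a setting applied to these lists after seeing the data, its WT rise was at least 1.99-fold, and the order of Dusp14 and Dusp3 (1.44 in WT) is not settled. In KO, Dusp14 was not called (adjusted p = 0.0514). Averaged over time, 0 of the 18 differed between KO and WT by limma, against 1.21% of all genes.

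Genes of the kinase cascades that these phosphatases oppose changed in both directions. In the Ras-ERK list, 18 of 25 genes were tested, and 4 rose and 9 fell at 3 h in each genotype. That is 22.2% and 50% of the list, against 16.6% and 21.7% of all genes in KO and 17% and 21.3% in WT. The largest fall in both was in Rasgrp2, a calcium-sensitive exchange factor for Rap and Ras proteins, at -3.36 in KO and -3.41 in WT (adjusted p = 5.97e-11 and 4.19e-11). The largest rises were Ksr1, a scaffold of the ERK cascade, in KO (1.11, adjusted p = 0.00272) and Mapk7, which encodes ERK5, in WT (1.14, adjusted p = 0.00206). In the JNK and p38 list, 23 of 26 were tested, and 3 rose and 8 fell in KO and 3 rose and 7 fell in WT. The shares that fell were 34.8% in KO and 30.4% in WT, and the share that rose was 13% in both, against the same shares of all genes. Map2k6, a kinase that activates p38, fell in both (adjusted p = 1.92e-05 in KO and 6.3e-05 in WT), with all 3 KO arrays and 2 of the 3 WT arrays of 3 h under their filter level. With those signals raised to the level its fall was at least 6.72-fold in KO (-2.75) and was 5.45-fold in WT (-2.45). Rps6ka5, a kinase downstream of ERK and p38 named after its value was seen, was at -3.19 in KO and -3.26 in WT, so which of them fell most is not settled. Map2k3, the other main p38 kinase kinase, rose by 2.02 in KO (adjusted p = 4.94e-10), and Mapkapk3, a kinase downstream of p38, rose by 2.16 in WT (adjusted p = 1.13e-08). Averaged over time, 0 of the 18 and 0 of the 23 differed between KO and WT, against 1.21% of all genes.

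Among other brakes of the ERK pathway, 17 of 19 were tested, and 5 rose and 4 fell at 3 h in each genotype. The 23.5% that fell is near the 21.7% of all genes in KO and 21.3% in WT, and 29.4% rose, against 16.6% and 17%. Rasa3 fell by 3.01 in KO and 3.14 in WT (adjusted p = 1.9e-11 and 8.28e-12). Pea15a, which holds ERK in the cytoplasm, rose by 1.99 in KO and 1.77 in WT (adjusted p = 1.13e-07 and 6.19e-07). It was also the 1 gene of this list that differed between genotypes, being 0.48 higher in KO averaged over the 4 times (adjusted p = 0.0279). Its means at 0, 3, 8 and 16 h were 8.33, 10.32, 9.33 and 8.75 in KO and 8.07, 9.84, 8.57 and 8.33 in WT.

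The genes that ERK induces were tested as a list of 23, all of which passed the filter. At 3 h, 6 rose and 9 fell in KO and 6 rose and 10 fell in WT, with a median of -0.05 in KO and -0.4 in WT. In KO 26.1% of the list rose and 39.1% fell, against 16.6% and 21.7% of all genes, and in WT 26.1% and 43.5%, against 17% and 21.3%. Fos was the largest fall, at -4.78 in KO and -5.81 in WT (adjusted p = 1.78e-09 and 8.89e-11), and its 0 h mean was 14.27 in KO and 14.65 in WT. Fosl2, another AP-1 subunit, rose by 4.82 in KO and 3.6 in WT (adjusted p = 4.4e-06 and 0.000164), but 2 KO and 1 WT array of 0 h were under their filter level. With those raised to the level its rise was 3.58 in KO and 3.46 in WT, below that of Egr2, an early growth response factor, at 4.29 in KO and 3.49 in WT. Only Egr2 of the 23 differed between genotypes averaged over time, being 1.03 lower in KO (adjusted p = 0.002), with means of 8.26, 12.54, 12.1 and 12.33 in KO and 9.95, 13.45, 12.95 and 13 in WT.

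Markers of other blood cells moved with time as well. The summed linear signal of 6 NK cell markers was 617 to 2679 at 0 h, 400 to 1008 at 3 h, 334 to 623 at 8 h and 239 to 513 at 16 h in KO, and 716 to 1354, 376 to 559, 244 to 449 and 260 to 332 in WT. For the 8 macrophage and monocyte markers the sum was 4222 to 8717 at 0 h, 2020 to 3213 at 3 h, 2091 to 4405 at 8 h and 3314 to 9675 at 16 h in KO. In WT it was 4555 to 11438, 1758 to 6335, 1750 to 4738 and 2109 to 4543. The 7 neutrophil markers summed to 786 to 5164 at 0 h and 680 to 4347 at 16 h in KO, and to 2820 to 4160 and 1027 to 1166 in WT. The 9 B cell markers summed to 137937 to 184965 at 0 h and 64172 to 72573 at 16 h in KO, and to 148883 to 173959 and 52463 to 59363 in WT. No marker was at 0 on any array, and none of these lists except B cells had a gene called between KO and WT averaged over time. The 3 called B cell markers were Cr2 (0.78), Cd22 (0.78) and Fcer2a (0.62), all higher in KO (adjusted p = 9.29e-06, 5.88e-05 and 0.00737). Cd22 was named after its value was seen. At single times, Nkg7, an NK cell marker, was lower in KO at 16 h (means 3.96 in KO and 6.61 in WT, adjusted p = 0.0255). Adgre1, which encodes the macrophage antigen F4/80, was higher in KO at 16 h (10.25 in KO and 9.07 in WT, adjusted p = 0.0191). Both were named after their values were seen. The KO mean of Nkg7 lay under 5.37, the lowest filter level of any array. Klrd1, another NK cell marker also named after its value was seen, ran the other way at 16 h. Its means were 6.58 in KO and 4.89 in WT, and it was not called. The sum of the 8 T cell markers had its highest range at 3 h in both genotypes. It was 384 to 790 at 0 h, 755 to 906 at 3 h, 524 to 667 at 8 h and 445 to 620 at 16 h in KO. In WT it was 405 to 502, 758 to 1134, 593 to 840 and 466 to 577. Cd5 was the only T cell marker called at 3 h against 0 h. Its mean rose from 5.91 to 8.87 in KO and from 6.73 to 9.26 in WT. Which cells carried this rise of Cd5, B cells or others, was not tested. Cd4 and Cd8b1 were over the filter level on no array, and Cd3d, Cd3e and Cd3g on 4, 4 and 5 arrays. The 5 dendritic cell markers summed to 426 to 651, 457 to 840, 328 to 531 and 260 to 403 in KO, and to 368 to 415, 512 to 726, 395 to 584 and 335 to 509 in WT. The part of other cells in the changes of the 8 genes was not tested.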

How the data were processed

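The deposited series table holds log2 signals from MAS5, a program that summarises each probe set of an Affymetrix array, per the submitters' processing notes, and the log2 scale was read from the values. As deposited, each of the 24 arrays has the same trimmed mean of 500 on the linear scale, and values were used with no further normalization. The 64 control probe sets were removed. Probe sets were named from the array's probe annotation, with 34945 carrying 1 symbol, 932 carrying several and not named, and symbols updated through Entrez identifiers to RefSeq.

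The brightest probe set by mean over 24 arrays stood for each gene. A gene was tested if it lay above the 40th percentile of its own array on at least 3 arrays, which kept 14335 genes. A limma model (limma 3.58.1, R 4.3.3) had 1 mean for each of the 8 groups, 16 residual degrees of freedom and trended empirical Bayes. It gave the differences, with Benjamini-Hochberg adjustment over all genes tested and a threshold of 0.05. Exceptions were the adjusted p-values of Nfatc1 and of the dimmer probe sets of Dusp7, Dusp10 and Dusp16. Those came from the same model fitted to all 34945 probe sets with 1 symbol, without the filter. The number of arrays limits precision. Simulated data with known changes served to test the fit, and figures were drawn with matplotlib 3.10.9.

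The 8 phosphatase genes, the gene lists and the tests were chosen with earlier results of these data known. The text names Nfatc1, the 8 genes with all their probe sets, the called genes of largest rise and fall in each list at 3 h and averaged over time, and the 3 genes of most similar pattern by Pearson r over the 24 arrays. Sequences came from RefSeq (GRCm38.p6) and were searched for motifs with Python 3.11.15. Alternatives covered normalization, filter, probe set choice, a floor at the filter level, replicate blocks, the variance model, the groups in the fit and arrays left out.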

Additional observations from a re-analysis of the deposited data

How the results depend on the processing

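The count of the 8 genes called between KO and WT stayed at 0, averaged over time, at each time and in the genotype by time test, under all 13 other settings and when each of the 24 arrays was left out. Fitting only the groups compared gave no separate value for the averaged and the genotype by time tests, which use all groups. Leaving out 1 array at a time, the counts called against 0 h ranged from 5 to 6, 6 to 7 and 6 to 7 in KO at 3, 8 and 16 h, and from 4 to 6, 6 to 8 and 6 to 7 in WT. Under the other settings they ranged from 5 to 6, 6 to 8 and 7 to 7 in KO and from 4 to 7, 5 to 8 and 6 to 7 in WT. The calls of Dusp1, Dusp4 and Dusp6 against 0 h were kept in all of these. Over 1968 comparisons of a gene's result with its value under another setting, 25 calls were lost, 13 were gained and 1 called difference turned its sign, and 50 uncalled differences turned theirs. The turned value was Dusp10 in WT at 3 h, which was 0.59 on its dimmer probe set against -0.77 on the brighter one, and the cause was not tested. Scaling arrays to their medians moved the median of all genes by 0.15 in KO and 0.24 in WT at 3 h and by 0.16 in WT at 8 h. Dusp10 and Dusp16 in WT at 3 h were then -0.53 and -0.27 (adjusted p = 0.215 and 0.425), Dusp16 in WT at 8 h was -0.3 (adjusted p = 0.398), and Dusp2 at 3 h was 0.73 in KO and 0.67 in WT (adjusted p = 0.0305 and 0.0459). Without the 4 male-type arrays, 4 and 5 of the 8 genes were called in WT at 3 and 8 h. Without the KO 8 h and KO 16 h replicate 2 arrays together, Dusp5 in KO was -0.89 and -1.43 (adjusted p = 0.247 and 0.0463). The replicate numbers were not taken as pairs: KO and WT arrays of the same time and number had a correlation of deviations over 0.1 in 3 of 12 pairs (0.015 to 0.221), and arrays of the same number at different times in 11 of 18 pairs in KO and 5 of 18 in WT. With the replicate number as a fixed replicate block, Dusp2 was also called at 3 h in KO (0.58, adjusted p = 0.00562) and WT (0.43, adjusted p = 0.0355) and at 8 h in KO (-0.46, adjusted p = 0.0303) and WT (-0.56, adjusted p = 0.00852), and 0 genes were called between genotypes. With genotype and number as a random block (correlation 0.208) Dusp2 was called at 3 h in KO and at 8 h in WT. All adjusted p-values are from limma.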
